A study of Sus scrofa with 36 samples.

Results

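Progesterone was given together with haloperidol, and without estrogen, to 4 of the pigs of this study, and their mammary glands were compared with those of 4 pigs given haloperidol alone. The 8 arrays were chosen by their treatment labels out of 36 arrays in the series, and the comparison covers all 20792 probe sets of a pig Affymetrix expression array, of which 9149 carry 1 gene symbol, 178 carry several and 11465 carry none in the annotation used. The animals were female Yucatan miniature swine around puberty, 5 months old, and each array holds RNA from 1 pig's gland. All pigs of the 8 hormone-treated groups had their ovaries removed on the first day and were then given bromocriptine for 8 days. For the 5 days that followed, the haloperidol group received haloperidol in its place, and the haloperidol plus progesterone group received haloperidol with progesterone. Both groups therefore share the loss of the ovaries, the earlier bromocriptine and the haloperidol, and differ in progesterone. The other hormone-treated groups had the same operation and pretreatment and then received bromocriptine, bromocriptine plus progesterone, bromocriptine plus estrogen, bromocriptine plus estrogen and progesterone, haloperidol plus estrogen, or haloperidol plus estrogen and progesterone. A sham group kept its ovaries and received saline. Each of the 9 groups had 4 pigs, all were given the thymidine analogue BrdU 24 hours before the end, and the labels state no hormone dose.

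Progesterone acts through the progesterone receptor, a nuclear receptor encoded by PGR that binds DNA and changes transcription. In mammary epithelium only some luminal cells carry the receptor, its gene is itself induced by estrogen, and receptor-bearing cells signal to their neighbours through secreted factors such as amphiregulin. Bromocriptine stimulates dopamine receptors of the pituitary and lowers prolactin, haloperidol blocks the same receptors and raises it, and prolactin drives milk protein genes through the transcription factor STAT5. The comparison addresses what progesterone does to gene expression in a gland with prolactin drive and without ovarian or added estrogen.

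Values are the authors' RMA summaries, read as log2 intensity, so that a difference of 1 is a 2-fold change. Values of single arrays are given in the order A, B, C and D of the labels' letters, means carry the SD over 4 pigs, and differences carry the standard error of a limma model fitted to all 36 arrays. A probe set counted as changed when its Benjamini-Hochberg adjusted p over all 20792 probe sets was under 0.05. Array medians lay between 7.83 and 7.91. Epithelial markers were high in both groups: KRT8, a luminal keratin, was between 12.30 and 12.71 in the haloperidol arrays and between 12.25 and 12.48 in the haloperidol plus progesterone arrays. EPCAM, an epithelial adhesion protein, was between 10.64 and 11.78 and between 10.63 and 12.33 in the same groups. Within the haloperidol group the arrays correlated at 0.963 to 0.975 across probe sets, within the haloperidol plus progesterone group at 0.947 to 0.977, and between the groups at 0.959 to 0.977.

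No probe set changed when progesterone was added to haloperidol. The limma model called 0 of 20792 probe sets (0%). In this comparison 568 (2.73%) had an unadjusted p under 0.05 and 99 had one under 0.01. The share of 2.73% is below what that threshold gives on average where nothing differs. The smallest adjusted p was 0.0903. It belonged to Ssc.29546.1.A1_at, which has no gene symbol here and stood at 5.15, 5.21, 5.05 and 5.58 with haloperidol and at 3.73, 3.81, 3.33 and 3.04 with progesterone added. All 4 arrays with progesterone lay below all 4 without, and the difference was −1.77 ± 0.32 log2. With limma's array weights this probe set was called, at an adjusted p of 0.00236, and it was the 1 call made in any of the 19 other settings tried. Of the genes named below other than in the comparison with estrogen, none therefore rose or fell in this test, and their values are given as measured.

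The precision sets what such a count can show. The median 95% interval of a probe set reached 0.59 log2 to either side of its difference, which is 1.5-fold, and for 73.7% of probe sets the whole interval lay within 1 log2 of no difference. These intervals are for single probe sets. Passing the adjusted threshold took more, since Ssc.29546.1.A1_at did not pass at 3.41-fold, and a missed threshold does not show that the groups were alike. Taking 1 probe set per gene, 44 of 6193 genes differed by more than 1 log2 between the group means. The 4 arrays with progesterone all lay above the 4 without for 64 genes (1.03%) and all below for 78 genes (1.26%). The root mean square difference between the group means was 0.30 log2, against 0.43 when progesterone was added to haloperidol plus estrogen and 0.78 between haloperidol plus estrogen and haloperidol alone.

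**Figure D1:**
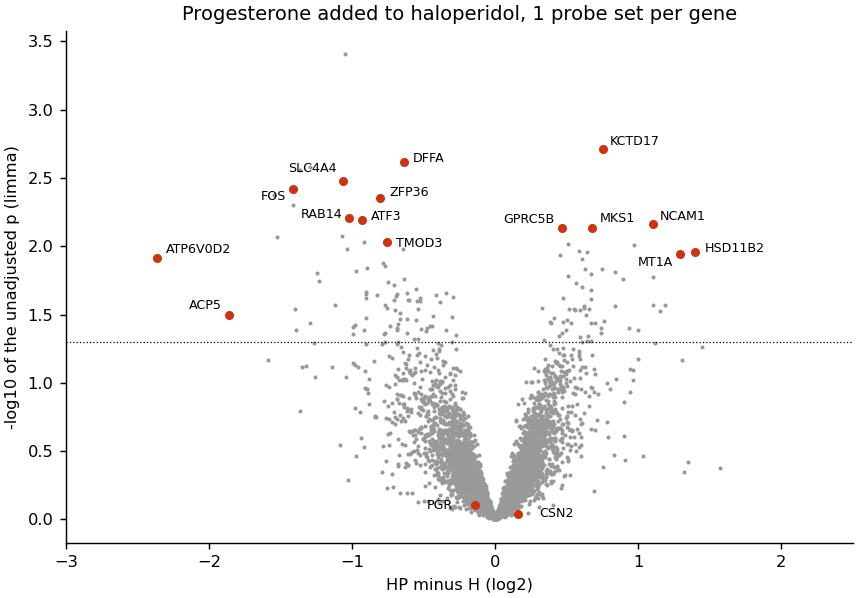
Difference between haloperidol plus progesterone (HP) and haloperidol alone (H) on the horizontal axis (log2) against −log10 of the unadjusted limma p (vertical axis) for 6193 genes, 1 point per gene, with 17 named genes labelled and a dotted line at the unadjusted threshold of 0.05. The points spread to both sides of 0, none passed the adjusted threshold, and 44 lie more than 1 log2 from 0.

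PGR was low in both groups. The haloperidol arrays had PGR levels of 5.41, 5.26, 6.45 and 5.90, and the haloperidol plus progesterone arrays had 5.64, 5.80, 5.31 and 5.69. The groups overlapped throughout, and the difference was −0.14 ± 0.53 log2 with a 95% interval from −1.22 to 0.94. The PGR means of both groups lie under 5.90, the lowest lower quartile of any array, so the lack of a difference says little. In order of the group means, PGR stood at 5.24 ± 0.98 with bromocriptine, 5.61 ± 0.21 with haloperidol plus progesterone, 5.76 ± 0.54 with haloperidol, 6.57 ± 1.66 with bromocriptine plus progesterone, 7.08 ± 0.34 with haloperidol plus estrogen and progesterone, 7.50 ± 0.78 with bromocriptine plus estrogen and progesterone, 7.60 ± 0.63 in the sham group, 8.41 ± 0.24 with haloperidol plus estrogen and 9.23 ± 0.65 with bromocriptine plus estrogen. The 4 lowest groups are the 4 without estrogen or ovaries, and neighbours among them do not differ beyond their spread. All arrays of the haloperidol and haloperidol plus progesterone groups lay below all arrays of both haloperidol groups that had estrogen. ESR1, the estrogen receptor alpha gene, averaged 4.05 with haloperidol and 4.01 with progesterone added. Both means lie under the lower quartile of every array, so the probe set says little about its level.

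**Figure D2:**
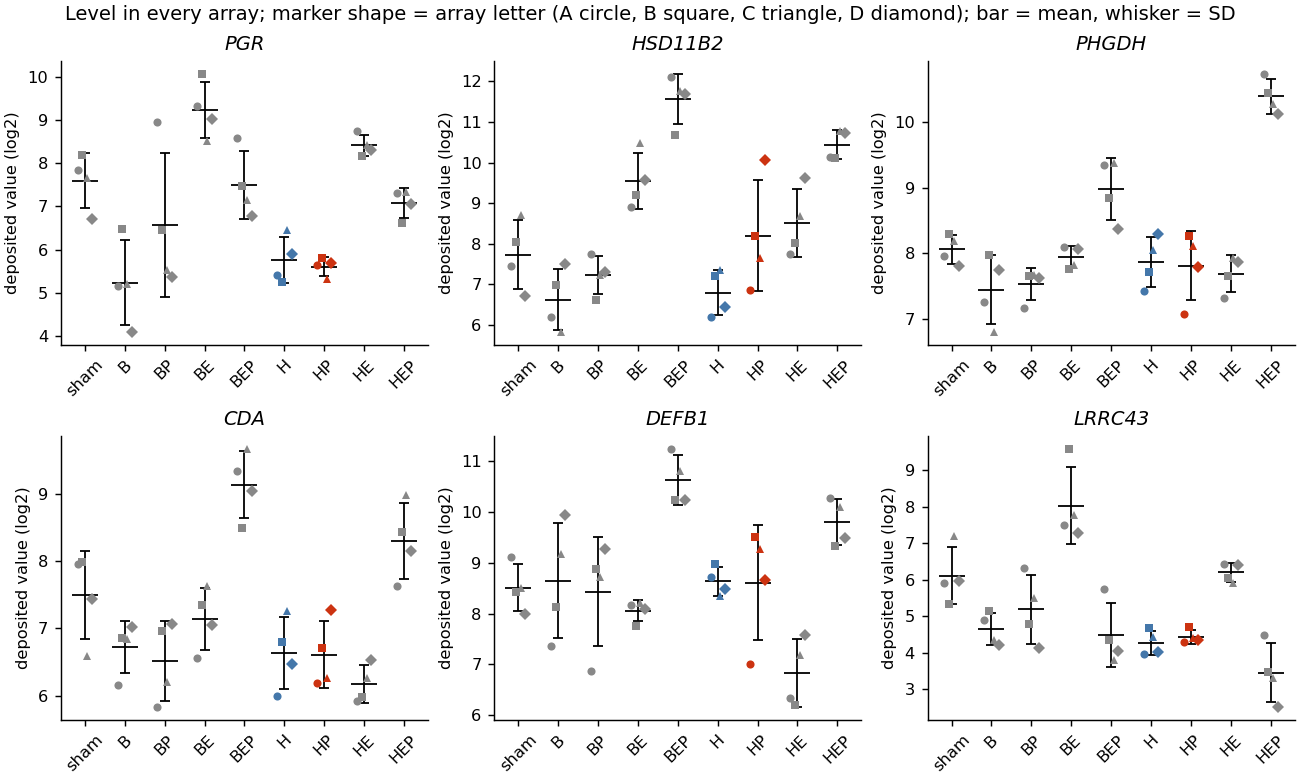
Levels (log2 intensity) of PGR, HSD11B2, PHGDH, CDA, DEFB1 and LRRC43 in the 9 groups, 4 pigs each (B bromocriptine, H haloperidol, E estrogen, P progesterone); the point shape gives the letter A to D, bars are means and whiskers SDs, with haloperidol in blue and haloperidol plus progesterone in red. PGR lies near 5.7 in the blue and red groups, and PHGDH reaches a mean of 10.39 only in the group with haloperidol, estrogen and progesterone.

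Known targets of the progesterone receptor and its paracrine mediators did not pass the test. Of 30 listed genes 13 were measured, 4 had a higher mean with progesterone and 9 a lower one, 0 were called, and their median difference was −0.12, beside 0.00 over all genes. HSD11B2, which inactivates cortisol, had the highest difference of the list. Its levels were 6.20, 7.19, 7.35 and 6.43 with haloperidol and 6.85, 8.20, 7.66 and 10.08 with progesterone. Array D with progesterone stood far above the rest, arrays B and C lay above the haloperidol range and A inside it. The difference was 1.40 ± 0.52 log2 (2.64-fold) with a 95% interval from 0.34 to 2.46, and 0.77 log2 without array D of the progesterone group. The same gene differed by 1.93 when progesterone was added to haloperidol plus estrogen and by 2.02 when it was added to bromocriptine plus estrogen, and it passed in none of these comparisons. AREG, which encodes amphiregulin, was at 7.20, 6.80, 6.77 and 6.70 with haloperidol and at 7.08, 5.15, 5.84 and 8.59 with progesterone. The progesterone arrays of AREG spread to both sides of the haloperidol arrays, and the difference was −0.20 ± 0.54. FKBP5, a chaperone of steroid receptors induced by progestins and glucocorticoids, differed by 0.27 ± 0.28 (−0.07 on its other probe set). KLF4 and SGK1, a zinc finger factor and a kinase, differed by −0.54 ± 0.26 and −0.28 ± 0.13.

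The genes that progesterone moved on average in an earlier report of these arrays, HSD11B2 among them, differed in both directions here, from −0.43 for CYP2C33 to 1.40 for HSD11B2. They were chosen on these arrays, partly on this comparison, and are no independent evidence of a direction. All 8 were measured, 3 had a higher and 5 a lower mean with progesterone, 0 were called, and their median difference was −0.02. The median of the same 8 was 2.14 when progesterone was added to haloperidol plus estrogen, where 6 were called higher and 1 lower, and 1.80 when it was added to bromocriptine plus estrogen. CDA, a cytidine deaminase of pyrimidine salvage, was at 5.99, 6.80, 7.26 and 6.47 with haloperidol and at 6.18, 6.71, 6.26 and 7.27 with progesterone. The groups overlapped, with a difference of −0.02 ± 0.35 and a 95% interval from −0.73 to 0.68, whereas CDA rose by 2.13 with estrogen present (limma adjusted p = 0.00105). DEFB1, an antimicrobial beta-defensin, was at 8.72, 8.98, 8.35 and 8.47 with haloperidol and at 7.0, 9.50, 9.27 and 8.66 with progesterone. Its array A with progesterone was the lowest of the 8, arrays B and C were the highest, and the difference was −0.03 ± 0.50, against a rise of 2.97 with estrogen present (limma adjusted p = 0.00135). MAL, a membrane protein of apical transport, differed by 0.32 ± 0.44. FAM3D, a secreted cytokine-like protein, differed by −0.03 ± 0.43 at levels near the bottom of the array. LRRC43, a leucine-rich repeat protein, fell by 2.75 with estrogen present and stood at 3.98, 4.67, 4.43 and 4.02 with haloperidol and 4.29, 4.71, 4.42 and 4.35 with progesterone. It was dim in both of these groups, and its difference was 0.17 ± 0.47. Outside that list, HAPLN1, a linker of hyaluronan in the matrix, differed by 1.30 ± 0.69 on the brighter probe set and by 0.01 on its other probe set. SULT1E1, the estrogen sulfotransferase, also outside it, differed by −0.05 ± 0.85.

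Adding progesterone to haloperidol plus estrogen, the same step with estrogen present, changed 99 probe sets (0.476%), of which 63 rose and 36 fell, while 1887 had an unadjusted p under 0.05. The 63 that rose there had a median change of 1.69 there and a median difference of −0.10 without estrogen, ranging from −2.36 to 0.48, with 21 above 0. The 36 that fell there had a median change of −1.82 there and a median difference of 0.12 without estrogen, ranging from −0.29 to 0.88, with 24 above 0. In all 63 and all 36 the 95% interval without estrogen stopped short of the change measured with estrogen. These probe sets were chosen as called with estrogen, which favours large values there, so these counts are a description. Without 1 array the 99 became 237 (haloperidol plus estrogen and progesterone A), 43 (B), 59 (C) and 50 (D) for that group, 61 and 45 without haloperidol plus estrogen B and C, and 172 without bromocriptine plus progesterone A. Added to bromocriptine, progesterone changed 5 probe sets without estrogen (0.024%, with 2133 at an unadjusted p under 0.05) and 31 with estrogen (0.149%, 11 higher and 20 lower). The 5 ranged from 0 to 19 with 1 array left out, at 19, 13 and 9 without bromocriptine plus progesterone A and C and bromocriptine D and at 0 without bromocriptine A, B or C or bromocriptine plus progesterone B or D. The 31 became 16 and 18 without bromocriptine plus estrogen B and D, and 20 and 14 without bromocriptine plus estrogen and progesterone B and C.

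**Figure D3:**
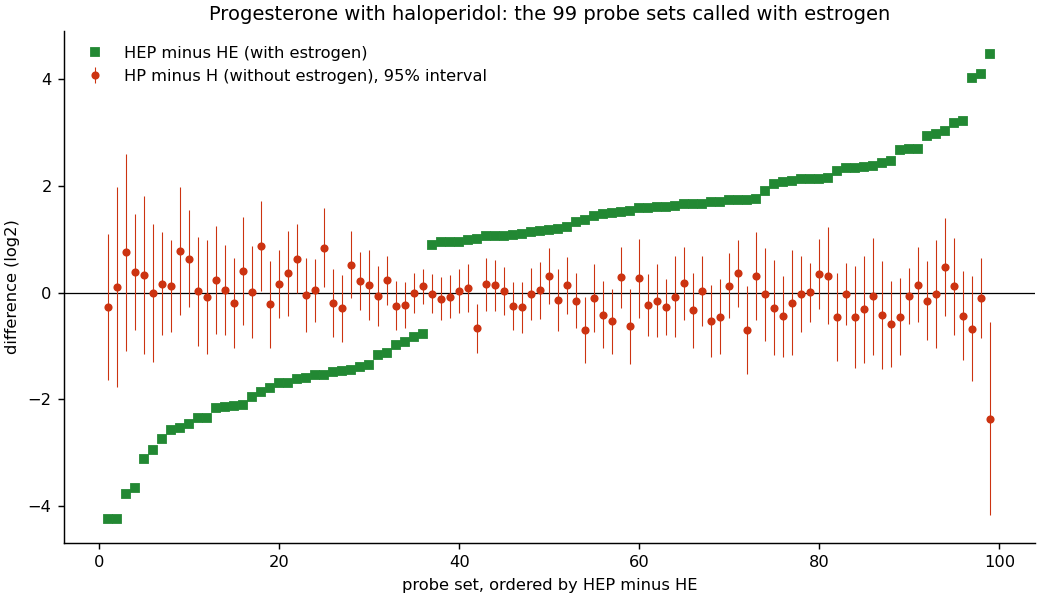
The 99 probe sets that changed when progesterone was added to haloperidol plus estrogen, ordered by that change (green squares, log2, HEP minus HE), with the difference between haloperidol plus progesterone and haloperidol alone for the same probe sets (red points, HP minus H, with 95% limma intervals). The red points lie around 0, from −2.36 to 0.88, while the green squares lie far to both sides.

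The difference between these 2 effects was tested directly, as the effect of progesterone on haloperidol less its effect on haloperidol plus estrogen. It passed for 26 probe sets (0.125%, 6 higher and 20 lower, with 1505 at an unadjusted p under 0.05). The count was 49 and 46 without bromocriptine plus progesterone A and haloperidol plus estrogen and progesterone A. It lay between 11 and 15 without haloperidol B (14) or D (11), haloperidol plus progesterone A (12), haloperidol plus estrogen B (14) or C (13), or haloperidol plus estrogen and progesterone B (15), C (14) or D (13).

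PHGDH, the first enzyme of serine synthesis from glucose, had the clearest such difference among named genes. Its levels were 7.43, 7.71, 8.05 and 8.29 with haloperidol and 7.08, 8.26, 8.12 and 7.79 with progesterone. The groups overlapped, and the effect without estrogen was −0.06 ± 0.26 log2 with a 95% interval from −0.59 to 0.47. On haloperidol plus estrogen, PHGDH rose from 7.69 ± 0.28 to 10.39 ± 0.26, which is 6.49-fold. On bromocriptine plus estrogen it differed by 1.04 with progesterone, which did not pass. The effects on haloperidol without and with estrogen differed by −2.76 ± 0.37 (limma adjusted p = 0.000172), and PHGDH passed under all 27 other settings. Over the list of serine synthesis and one-carbon genes, 18 of 24 were measured, 10 had a higher and 8 a lower mean when progesterone was added without estrogen, 0 were called, and the median was 0.06. CTH, which makes cysteine from cystathionine, had the lowest difference of that list at −0.69 ± 0.29, PSAT1, the next enzyme after PHGDH, differed by −0.32 ± 0.27, and SHMT1, which passes a carbon from serine to folate, by 0.38 ± 0.22.

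CYP2C33, a cytochrome P450, also rose when progesterone was added to haloperidol plus estrogen. It was dim without estrogen, at 4.21, 3.53, 4.21 and 3.59 with haloperidol and 3.55, 2.96, 2.95 and 4.35 with progesterone. That difference was −0.43 ± 0.41. On haloperidol plus estrogen it rose from 3.15 ± 0.28 to 6.37 ± 1.14, and the 2 effects differed by −3.65 ± 0.58 (limma adjusted p = 0.0028). The call was kept in every setting in which it was tested. On bromocriptine plus estrogen CYP2C33 differed by 1.03 with progesterone, which did not pass. GPX2, a glutathione peroxidase of epithelia, went the other way. It stood at 5.21, 6.02, 5.60 and 4.64 with haloperidol and at 4.87, 6.05, 6.48 and 5.63 with progesterone. These 2 groups overlapped, with an effect of 0.39 and a 95% interval from −0.69 to 1.47. On haloperidol plus estrogen GPX2 fell from 8.90 ± 0.84 to 5.25 ± 0.45, near the means of both haloperidol groups without estrogen. These low means lie under the lower quartile of every array, 5.90 at its lowest, so their likeness says little. With bromocriptine plus estrogen GPX2 averaged 5.32, and 4.76 with progesterone added. The effects on haloperidol without and with estrogen differed by 4.05 ± 0.75 (limma adjusted p = 0.0131, and 0.0524 without haloperidol D).

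For 4 other named genes the call was lost when some single arrays were left out. SEC14L2, a lipid-binding protein, differed by 2.39 ± 0.51 between the effects (limma adjusted p = 0.047), GCAT, a mitochondrial enzyme of threonine breakdown, by 2.26 ± 0.44 (0.0202), MKS1, a protein of the ciliary base, by 1.65 ± 0.33 (0.0303) and DIRAS3, a small GTPase, by −2.06 ± 0.43 (0.0375). Leaving out 1 array ended the call for SEC14L2 in 13 of 17 cases, for GCAT in 8, for MKS1 in 9 and for DIRAS3 in 12. A probe set each of RCAN1, an inhibitor of calcineurin, and NDUFA1, a subunit of respiratory complex I, also passed, at −3.07 and −2.35 (limma adjusted p = 0.0128 and 0.00545). Neither is the brightest of its gene, so the rule for named genes did not take them. The brightest probe set of each of these genes was tested too and did not pass. Without estrogen, adding progesterone gave differences of 0.84 for SEC14L2, 0.64 for GCAT, 0.68 for MKS1 and −0.70 for DIRAS3. Genes called with estrogen are not all shown to differ from the effect without it: the difference between the effects did not pass for CDA (−2.15, limma adjusted p = 0.075), DEFB1 (−3.0, 0.082) or LRRC43 (2.92, 0.075). Nor did it pass for FAM3D (−1.94, limma adjusted p = 0.344) or MAL (−1.83, 0.416), both called with estrogen.

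The effect of progesterone on haloperidol was also set against its effect on bromocriptine, both without estrogen. The limma test of that difference called 0 of 20792 probe sets (0%), with 1140 at an unadjusted p under 0.05, a smallest adjusted p of 0.204, and 2 probe sets called with array weights. Leaving out bromocriptine plus progesterone A gave 5, haloperidol plus progesterone B 3 and bromocriptine A 1. A typical 95% interval of this difference reached 0.83 log2 to either side, wider than that of the effect itself. Genes were ranked here if their unadjusted limma p for this difference was under 0.01 and a mean of the groups compared was above 5.98. Genes at a higher p, such as CSN2, were not ranked, whatever the size of their difference. The highest ranked difference was 1.68 for NCAM1, a cell adhesion molecule. NCAM1 differed by 1.10 ± 0.38 between haloperidol plus progesterone and haloperidol. ZNF106, ROCK1, ZDHHC1 and LONRF3 followed at 1.52, 1.43, 1.33 and 1.19. The effect on haloperidol itself was 0.60 for ROCK1 and −0.09 and −0.01 on its other probe sets, and 0.22 for ZNF106 and −0.27 and −0.24 on its other probe sets. The lowest ranked difference was −5.64 for ATP6V0D2, followed by ACP5 at −4.55 and MMP9 at −3.77. TCN1, a vitamin B12 binder, came next at −3.27 and then HPSE, heparanase, at −3.06. Bromocriptine plus progesterone array A, which enters each of these differences, stood apart from its group, at 70.0 on the first principal component of all arrays against −65.3, −48.3 and −53.8. It was at 3.83 for ATP6V0D2 against 8.59, 7.0 and 8.37 in arrays B, C and D, and at 9.30 for ACP5 against 10.72, 11.57 and 12.36. For ATP6V0D2, ACP5, MMP9 and HPSE, haloperidol plus progesterone arrays A and D were the lowest of the 8.

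A set of 4 named genes had arrays with progesterone all above those without, at an unadjusted limma p under 0.01. At any p, 64 of all 6193 genes (1.03%) had their arrays apart in that direction. KCTD17, an adaptor of a ubiquitin ligase at cilia, stood at 5.09, 5.72, 5.58 and 4.87 with haloperidol and at 6.22, 6.10, 5.97 and 5.97 with progesterone, a difference of 0.75 ± 0.22. MKS1 stood at 7.45, 7.08, 7.24 and 6.92 and at 7.85, 7.74, 7.61 and 8.21, a difference of 0.68 ± 0.24. NCOA7, a coactivator of nuclear receptors, stood at 6.31, 6.82, 6.28 and 6.72 and at 6.93, 6.97, 7.31 and 6.95, a difference of 0.51 ± 0.18. GPRC5B, an orphan G protein-coupled receptor, differed by 0.47 ± 0.16. Each lies between 1.38 and 1.68-fold, and none passed the adjusted threshold.

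Another 4 had all arrays with progesterone below those without, at the same unadjusted threshold. At any p, 78 of all 6193 genes (1.26%) had their arrays apart in that direction. SLC4A4, a sodium bicarbonate cotransporter, stood at 6.12, 7.37, 6.68 and 6.92 with haloperidol and at 5.25, 5.90, 5.94 and 5.75 with progesterone, a difference of −1.06 ± 0.33, and its other probe set gave −1.25. RAB14, a GTPase of membrane traffic, stood at 8.80, 8.75, 8.63 and 8.95 and at 8.07, 7.55, 7.80 and 7.64, a difference of −1.02 ± 0.35. TMOD3, which caps actin filaments, stood at 6.96, 6.87, 6.84 and 6.81 and at 6.16, 6.07, 6.14 and 6.08, a difference of −0.75 ± 0.27 (−0.42 on its other probe set). For RAB14 and TMOD3 the gap between the groups was wider than the spread within either. DFFA, the inhibitor of an apoptotic nuclease, stood at 8.69, 8.67, 8.78 and 9.16 and at 8.18, 8.18, 8.19 and 8.18, a difference of −0.64 ± 0.19, but its other probe sets gave 0.22 and 0.04. GCLM, the regulatory subunit of the first enzyme of glutathione synthesis, had the smallest unadjusted p of any gene at 0.000396 in the limma model and was singled out after its values were seen. It stood at 5.02, 5.41, 5.30 and 5.67 with haloperidol and at 3.91, 4.71, 4.34 and 4.24 with progesterone, below the level set for named genes. All 4 lay below the haloperidol arrays, with a difference of −1.05 ± 0.26, and it did not pass.

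**Figure D4:**
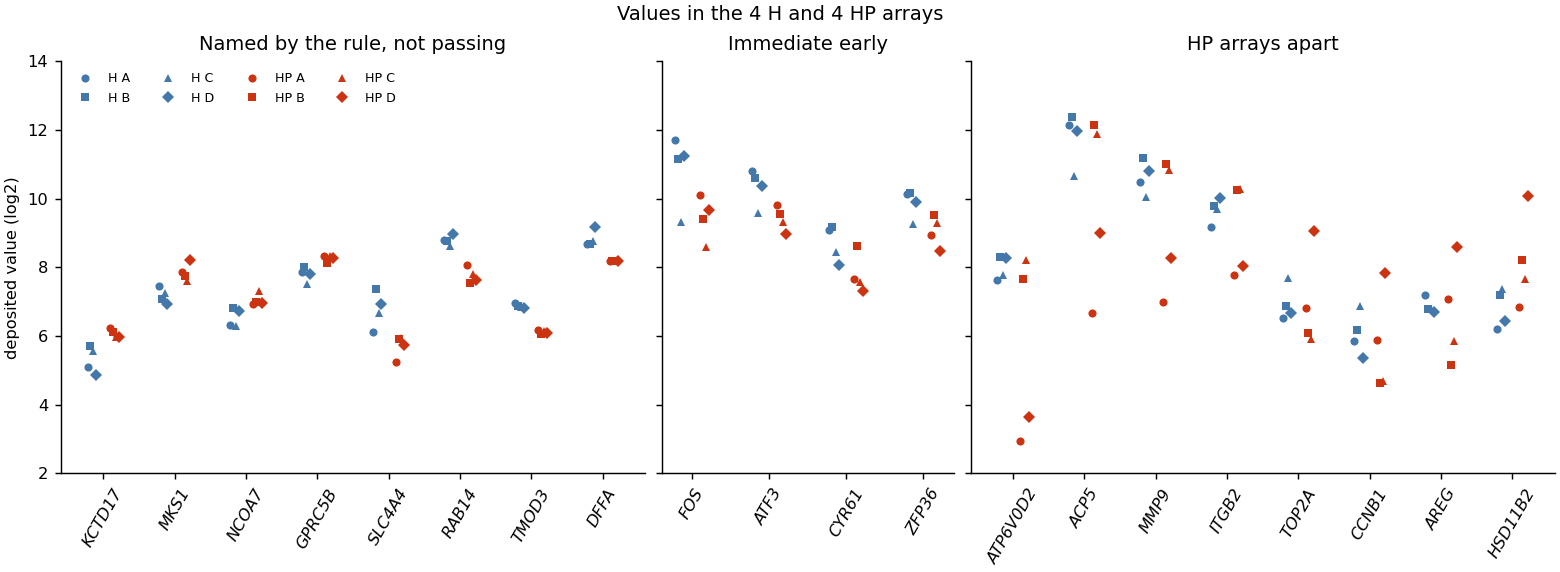
Levels (log2 intensity) of named genes on the 4 haloperidol arrays (H, blue) and the 4 haloperidol plus progesterone arrays (HP, red), 1 point per pig with its shape giving the letter A to D, in 3 panels: genes whose groups do not overlap, immediate early genes, and genes for which the progesterone arrays lie apart from each other. For ATP6V0D2, ACP5 and MMP9, progesterone arrays B and C lie among the haloperidol arrays while A and D lie below.

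Immediate early genes, the transcription factors and phosphatases induced within minutes of a stimulus, had mostly lower means with progesterone, and none passed the test. Of 25 listed 16 were measured, 2 had a higher mean and 14 a lower one, 6 had an unadjusted p under 0.05, all lower, and 0 were called. Over all 6193 genes, 58 were higher and 82 lower at that unadjusted p. Their median was −0.35, beside 0.00 over all genes, and stayed between −0.54 and −0.29 under the other settings. FOS, a subunit of the AP-1 factor, stood at 11.71, 11.15, 9.31 and 11.23 with haloperidol and at 10.11, 9.40, 8.57 and 9.67 with progesterone. Haloperidol array C was low, so the groups overlapped, and the difference was −1.41 ± 0.45 (2.66-fold lower). ATF3, a stress-induced repressor, stood at 10.81, 10.59, 9.59 and 10.36 and at 9.80, 9.54, 9.32 and 8.96, again with haloperidol C among the progesterone arrays. Its difference was −0.93 ± 0.32. NR4A2, an orphan nuclear receptor, stood at 7.20, 7.10, 6.98 and 6.73 and at 6.41, 6.35, 6.66 and 6.42, with no overlap and a difference of −0.54 ± 0.24. ZFP36, which destabilises mRNAs, differed by −0.81 ± 0.26 and CYR61, a matrix protein, by −0.90 ± 0.38. EGR1 differed by −0.23 ± 0.21 and JUN by −0.29 ± 0.29.

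The caseins were high in both groups, while other milk genes varied between pigs. Of 28 genes of milk protein and lactose synthesis 22 were measured, 14 had a higher and 8 a lower mean with progesterone, 0 were called, and the median was 0.23 (−0.13 without progesterone arrays A and D). The same list had a median of −1.10 when progesterone was added to haloperidol plus estrogen. CSN2, which encodes beta-casein, stood at 12.14, 11.50, 12.04 and 11.64 with haloperidol and at 12.22, 11.51, 11.86 and 12.36 with progesterone, near the top of the scale. The difference was 0.16 ± 1.36, with a standard error that draws on the spread in all 9 groups. The SD of CSN2 was 0.31 with haloperidol and 0.38 with progesterone added, but 4.02 with bromocriptine. WAP, the whey acidic protein, stood at 12.49, 9.77, 12.27 and 6.76 and at 13.02, 10.29, 12.01 and 11.35. LALBA, alpha-lactalbumin, the partner of the lactose synthase, stood at 12.39, 8.33, 10.51 and 5.47 and at 12.56, 9.08, 10.43 and 10.91. Haloperidol array D was the lowest of the 8 in both genes, and the remaining arrays overlapped. The differences were 1.35 ± 1.51 for WAP and 1.57 ± 1.91 for LALBA, with 95% intervals from −1.73 to 4.42 and from −2.33 to 5.47. Both intervals hold a rise and a fall of more than 2-fold, and they reach further on the side of a rise.

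Genes of the prolactin and STAT5 response also held no call. Of 26 listed 15 were measured, 8 had a higher and 7 a lower mean, 0 were called, and the median was 0.05. STAT5A and STAT5B, the prolactin-activated factors, differed by 0.33 ± 0.30 and 0.27 ± 0.34, and SLC34A2, a phosphate transporter of secretory epithelium, by 0.46 ± 0.83. SOCS1, a feedback inhibitor of the pathway, differed by −0.31 ± 0.33. Endoplasmic reticulum chaperones, which fold secreted proteins, had small and mostly positive differences: of 26 listed 20 were measured, 19 had a higher mean and 1 a lower one, 0 were called, and the median was 0.11. SDF2L1, DNAJC3 and HYOU1 had the highest of these at 0.40 ± 0.31, 0.35 ± 0.22 and 0.32 ± 0.21.

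Cell cycle genes were spread evenly about 0. Of 62 listed 34 were measured, 16 had a higher and 18 a lower mean with progesterone, 0 were called, and the median was −0.01. TOP2A, the topoisomerase of dividing cells, stood at 6.52, 6.88, 7.67 and 6.67 with haloperidol and at 6.81, 6.08, 5.92 and 9.04 with progesterone. Array D with progesterone was above all haloperidol arrays and arrays B and C below them, so the difference of 0.03 ± 0.64 is a balance of both (−0.67 without that array D). CCNB1, the mitotic cyclin, followed with 5.86, 6.16, 6.86 and 5.36 and with 5.88, 4.62, 4.69 and 7.83. With haloperidol plus estrogen, and with progesterone added to it, TOP2A averaged 10.78 and 10.97 and CCNB1 10.34 and 10.47, each above all 8 of its own values here.

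Other pathways in which steroids act had medians close to the 0.00 of all genes and 0 calls each. Hormone receptors and their co-factors (15 of 22 measured, 7 higher and 8 lower) had a median of −0.04, with the glucocorticoid receptor NR3C1 at 0.51 ± 0.47 on its brightest probe set and −0.73, −0.47 and −0.40 on the other 3, the growth hormone receptor GHR at −0.44 ± 0.48, GATA3 at 0.44 ± 0.31 (−0.16, −0.10 and 0.27 on its other probe sets) and the dopamine receptor DRD2 at 0.16 ± 0.67. Steroid metabolism (18 of 30, 9 and 9) had a median of 0.03, with CYP3A29, a steroid-oxidising P450, at −1.59 ± 0.84. Glucocorticoid-responsive genes (15 of 20, 7 and 8) had a median of −0.04. The metallothionein MT1A was the highest of these, at 5.86, 7.71, 7.46 and 6.65 with haloperidol and 6.78, 9.43, 8.33 and 8.32 with progesterone, a difference of 1.30 ± 0.48. Its progesterone arrays B, C and D lay above all haloperidol arrays and array A did not. Fatty acid and sterol synthesis (23 of 35, 12 and 11) had a median of 0.02, with PNPLA3, ELOVL6 and ME1 at −0.79 ± 0.73, −0.70 ± 0.42 and −0.64 ± 0.47. WNT, Hedgehog and growth factor signalling (33 of 72, 16 and 17) had a median of −0.01, with the inhibin subunit INHBB at −0.60 ± 0.33 and FGF7, a stromal growth factor for epithelium, at −0.54 ± 0.44. Keratins and defence proteins of epithelium (23 of 37, 9 and 14) had a median of −0.03, with ATP6V0A4, a proton pump subunit, at −1.33 ± 0.72, the mucin MUC4 at 1.04 ± 1.08 and S100A12, a calcium-binding protein of granulocytes, at −0.84 ± 0.61.

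Interferon-responsive genes were on the higher side. Of 34 listed 21 were measured, 20 had a higher mean with progesterone and 1 a lower one, 0 were called, and the median was 0.17, between 0.09 and 0.28 under the other settings. ISG15, a ubiquitin-like protein, stood at 7.47, 8.81, 7.38 and 7.67 with haloperidol and at 8.69, 8.41, 8.47 and 8.71 with progesterone, a difference of 0.74 ± 0.35. Haloperidol array B was above the progesterone arrays and haloperidol A, C and D were below them. The antiviral GTPases MX2 and MX1 differed by 0.78 ± 0.46 and 0.51 ± 0.40. Genes of 1 list measured on the same 8 arrays are not independent observations, here and for the other lists.

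Because each array holds a piece of whole gland, fewer cells of a type and less RNA per cell cannot be told apart, and cell type markers are given for that reason. Luminal epithelium (16 of 20 measured, 8 higher and 8 lower) had a median of 0.00 and basal and myoepithelial markers (8 of 16, 5 and 3) one of 0.08. ITGA6, a laminin receptor subunit, was the highest of the basal list at 0.57 ± 0.45 and OXTR, the oxytocin receptor, the lowest at −0.32. Fibroblast and matrix genes (31 of 42, 13 and 18) had −0.05 and endothelium (14 of 18, 8 and 6) 0.08. In the endothelial list the receptor FLT1 was at 0.48 ± 0.26 (0.24 and 0.12 on its other probe sets). The receptor TEK was at 0.43 ± 0.30 (0.06 and 0.06 on its other probe sets), and ECSCR was the lowest at −0.15. Adipocyte markers (12 of 18, 4 and 8) had −0.15, with leptin, LEP, at −1.04 ± 0.60, ADIPOQ at −0.63 ± 0.58 and PCK1, the highest, at 0.36. Skeletal muscle markers (19 of 26, 2 and 17) had −0.24 and the most uneven arrays. Their mean level ranged from 6.58 to 10.95 over the haloperidol arrays, highest in C, and from 5.47 to 9.18 over the progesterone arrays, lowest in D, and the sign of the median changed between settings. MYL1, a fast muscle myosin light chain, shows it, at 8.90, 7.36, 11.98 and 7.23 with haloperidol and 10.84, 6.78, 10.71 and 3.04 with progesterone. Keratinised skin (3 measured), melanocyte (5) and red cell (6) markers had a median of −0.13 each and peripheral nerve markers (4) −0.24. No marker list held a call, and their part in the other values was not tested.

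**Figure D5:**
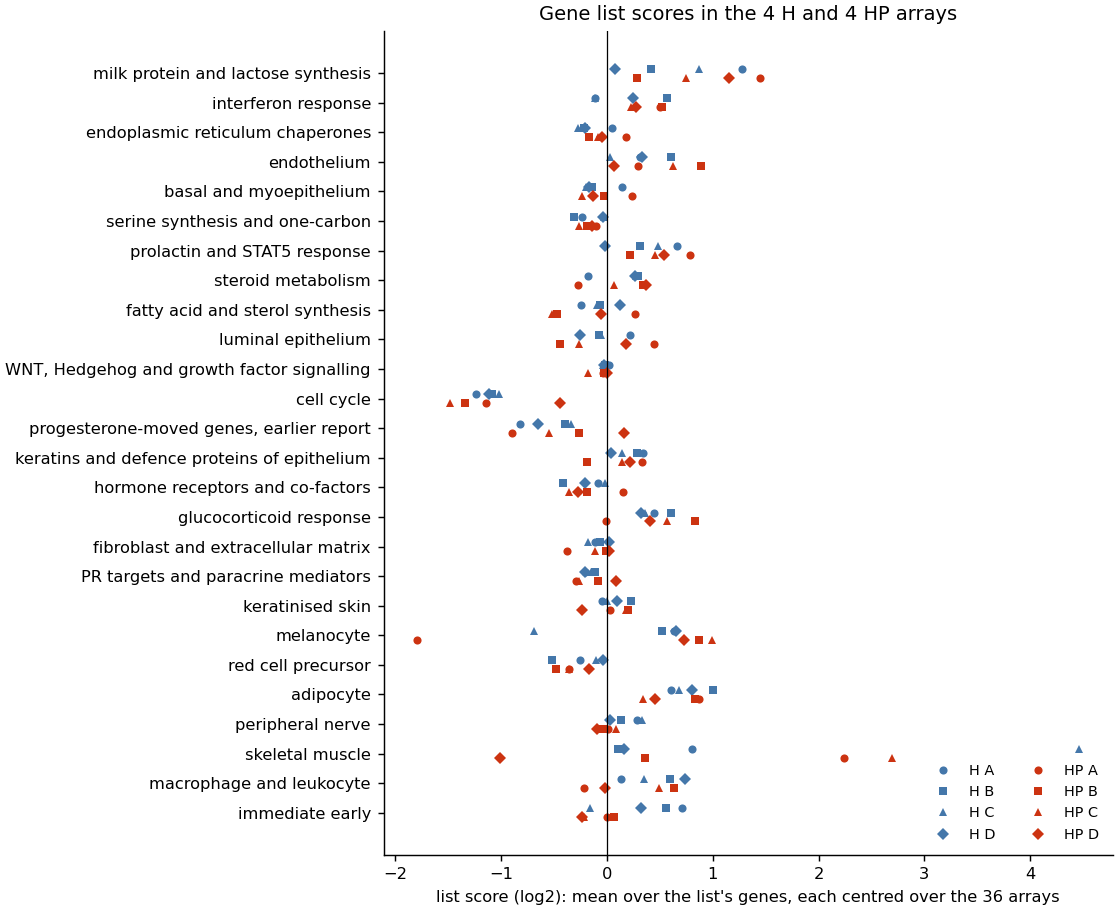
Mean level of each of 26 gene lists on the 4 haloperidol arrays (blue) and the 4 haloperidol plus progesterone arrays (red), each gene first centred over all 36 arrays (log2), 1 point per pig with its shape giving the letter. The groups overlap in every list, and the muscle list spans the widest range, from −1.01 to 4.47.

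The progesterone group was the less even of the 2. On the first principal component of all 36 arrays, which held 26.0% of the variance, haloperidol plus progesterone arrays A and D lay at −16.0 and −18.7 and arrays B and C at −66.4 and −65.3, with the haloperidol arrays between −28.2 and −54.8. ATP6V0D2, a proton pump subunit of osteoclasts and macrophages, showed the split most. It stood at 7.61, 8.28, 7.77 and 8.26 with haloperidol and at 2.94, 7.67, 8.20 and 3.66 with progesterone. Arrays B and C were like haloperidol and arrays A and D were at the level of the sham group, 3.34 ± 0.30, so the difference of −2.36 with a 95% interval from −4.18 to −0.55 was −0.04 once both were left out. On haloperidol plus estrogen, ATP6V0D2 rose from 3.51 ± 0.63 to 7.97 ± 0.78 on adding progesterone (limma adjusted p = 0.0109). On bromocriptine plus estrogen it differed by 0.23 with progesterone, which did not pass. The effects on haloperidol without and with estrogen differed by −6.83 ± 1.26 (limma adjusted p = 0.0128). Without arrays A and D they differed by −4.51 with a limma adjusted p of 0.175, which ended the call.

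ACP5, tartrate-resistant acid phosphatase, stood at 12.14, 12.38, 10.65 and 11.96 with haloperidol and at 6.67, 12.14, 11.88 and 8.99 with progesterone. MMP9, a gelatinase, stood at 10.49, 11.18, 10.05 and 10.79 and at 6.98, 11.0, 10.82 and 8.27. ITGB2, the leukocyte integrin beta chain, stood at 9.17, 9.78, 9.68 and 10.01 and at 7.79, 10.25, 10.27 and 8.03. In all 3 genes progesterone arrays A and D were the lowest of the 8. Of 28 macrophage and leukocyte markers 17 were measured, 2 had a higher and 15 a lower mean with progesterone, 0 were called, and the median was −0.30, which became 0.15 without arrays A and D. Their mean level ran from 8.90 to 9.51 over the haloperidol arrays and from 8.55 to 9.40 over the progesterone arrays, lowest in A. Without arrays A and D limma again called 0 probe sets for progesterone added to haloperidol, with 1384 at an unadjusted p under 0.05, and the 26 for the difference from the effect with estrogen became 12.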

How the data were processed

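Total RNA of 36 pig mammary glands was labelled with biotin and hybridised to 1 Affymetrix array each. The authors summarised the arrays with RMA, per the submitters' processing notes, and the deposited values were read as log2 from their range of 1.55 to 13.74; the log base is not stated in the labels. No further normalization was applied. Groups came from the treatment labels, 4 arrays each, and nothing was imputed.

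limma 3.58.1 in R 4.3.3 fitted 9 group means to 36 arrays (27 residual and 4.16 prior degrees of freedom), with moderated 95% intervals and Benjamini-Hochberg adjustment over 20792 probe sets per comparison at 0.05. The number of arrays limits the precision. The fit was tested on simulated data. Lists used the probe set with the highest mean per gene (6193 genes once uncharacterised LOC symbols were left out).

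Members and lists were chosen with earlier results of these data known. Genes were named by this rule: up to 12 called genes per direction, then genes at an unadjusted p under 0.01 with no overlap between the groups and a higher mean above 5.98 (the 25th percentile of all values); 28 fixed genes, of which 23 were measured; up to 3 per list; and up to 5 per direction for each difference of effects. At most 2 probe sets without a symbol per direction were allowed.

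Alternatives were a second quantile normalization, median centring, dim probe sets left out, trended and robust moderation, array weights from limma, a block for the letter, 1 probe set per gene, only the groups compared, and each array left out in turn. Leaving out haloperidol plus progesterone arrays A and D together was chosen after seeing the data. Nothing says that the letters A to D pair pigs across groups, so the main fit used no block. Deviations of same-lettered haloperidol and haloperidol plus progesterone arrays from their group means correlated at 0.26, 0.21, 0.15 and −0.04 for A to D. A shared effect of the letter is therefore not excluded, and the block for the letter was among the alternatives.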

Additional observations from a re-analysis of the deposited data

Results flagged for a closer look

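Single arrays stood apart from the other 3 of their group, by the gap to the nearest array as a share of the group's range, in 8 of 230 groups checked over 115 probe sets, where chance gives about 1 in 20. With haloperidol these were NUF2, a kinetochore protein, at 5.58 in array D (others 6.69 to 6.71), the chaperone SDF2L1 at 7.44 in D (8.19 to 8.22), the kinase ROCK1 at 7.10 in D (7.69 to 7.80), the endothelial adhesion molecule ESAM at 6.96 in C (8.38 to 8.44) and the leukocyte phosphatase PTPRC at 7.23 in B (6.13 to 6.28). With haloperidol plus progesterone they were NCOA7 at 7.31 in C (6.93 to 6.97) and the melanocyte enzymes TYRP1 and TYR at 2.30 and 3.04 in A (7.84 to 8.90 and 6.80 to 7.50).

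The effect of progesterone on haloperidol differed from its effect on haloperidol plus estrogen, in the limma test of that difference, by 4.05 for GPX2, 2.39 for SEC14L2, 2.26 for GCAT, 1.65 for MKS1, −6.83 for ATP6V0D2, −3.65 for CYP2C33, −2.76 for PHGDH and −2.06 for DIRAS3 on the log2 scale.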

How the results depend on the processing

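Progesterone added to haloperidol gave 0 calls in 18 of 19 other settings, with the replicate block as a fixed or a random term among them, and 1 with array weights. Of 110 genes examined one by one for this comparison, 79 kept their sign in every setting. Added to bromocriptine, progesterone gave 5 calls, against 3 after a second quantile normalization, 2 with dim probe sets left out, 2 with trended and robust moderation, 0 with array weights, 3 with the replicate block as a fixed term, 0 with 1 probe set per gene, 0 with only the groups compared, and 0 to 19 with 1 array left out. Added to haloperidol plus estrogen it gave 99 calls, against 362 with array weights, 43 with 1 probe set per gene, 46 with only the groups compared, and 43 to 237 with 1 array left out. Added to bromocriptine plus estrogen it gave 31 calls, against 13 with dim probe sets left out, 121 with array weights, 9 with 1 probe set per gene, and 14 to 35 with 1 array left out. The difference from the effect on bromocriptine gave 0 calls, against 2 with array weights and 0 to 5 with 1 array left out. The difference from the effect on haloperidol plus estrogen gave 26 calls, against 13 with dim probe sets left out, 79 with array weights, 8 with 1 probe set per gene, 12 without haloperidol plus progesterone arrays A and D, 11 to 49 with 1 array left out, and 33 and 27 with the replicate block as a fixed and a random term. Fewer tests or arrays follow from the construction of the settings that leave out probe sets or arrays; for the other settings the cause was not tested. Among the genes followed one by one, no value that passed the test changed sign in any of these settings. The other called probe sets were not followed one by one.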

Other observations

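Probe sets without a gene symbol held some of the widest gaps between the 2 groups. Ssc.12189.1.A1_at differed by −1.86 log2 on adding progesterone to haloperidol (limma adjusted p = 0.769), and its effect differed from that with estrogen by −2.97 (limma adjusted p = 0.019). Ssc.24739.1.A1_at differed by −1.65, Ssc.13520.1.A1_at by 1.37 and Ssc.29975.1.A1_at by 1.34, and none of the 3 passed.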
